A study of Mus musculus with 2 samples.

Results

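Iapp encodes islet amyloid polypeptide, also called amylin, and is 1 of the 32285 genes counted in single Tomato-positive cells of the mouse small intestine. It was taken by its symbol, which 1 row of the gene list carries, after its level had been seen to differ between the libraries. What follows on its levels is therefore a description, with no test. The WT library came from mice of the strain Neurog3Cre; Rosa26tdtomato, in which a Cre driven by Neurog3 turns on a red reporter for good in every descendant of a Neurog3-expressing progenitor. The other library, labelled NFKO, came from the strain Neurog3Cre-FoxO1 f/f; Rosa26tdtomato, which shares the Cre and the reporter and adds floxed FoxO1 alleles, so that FoxO1 should be lost in the same descendants. Each library pooled small intestines of 4 to 5 mice aged 4 to 6 weeks, cleared of attached pancreas and sorted for Tomato. The Cre also marks goblet, Paneth and other cells that descend from Neurog3-expressing progenitors, and the pooling leaves 1 library per group with no measure of the spread between mice.

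Amylin is best known from the pancreatic β cell, which stores it with insulin and releases both after a meal. The precursor is cut at pairs of basic residues by prohormone convertases, trimmed by carboxypeptidase E and amidated by Pam, and the mature peptide acts through the calcitonin receptor paired with receptor activity-modifying proteins. In the intestine, enteroendocrine cells are scattered through the epithelium, and each makes 1 or a few hormones. Among them D cells make somatostatin (Sst), which restrains the release of other hormones.

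Iapp lies at chr6:142298423-142303961 on the plus strand of GRCm38 (GENCODE M21; ENSMUSG00000041681). Its protein-coding transcript Iapp-201 has 3 exons, and the coding sequence begins in the exon at chr6:142298837-142298931 and ends in the exon at chr6:142303306-142303961, which also holds the 3′ UTR. Slco1a5, a transporter gene on the opposite strand, spans the whole locus. It had 0 UMIs in the kept WT cells and 1 in the kept cells of the NFKO-labelled library, and whether counting used the strand is not given in the sources used here. The coding sequence is shown to place the processing sites of the hormone that the counts stand for. It is taken from GENCODE M21, and capitals mark adjacent codons for lysine or arginine, where the precursor can be cut. The 282 bases hold 93 codons and a stop codon, and 38 codons separate the outermost of these basic pairs.
Iapp coding sequence: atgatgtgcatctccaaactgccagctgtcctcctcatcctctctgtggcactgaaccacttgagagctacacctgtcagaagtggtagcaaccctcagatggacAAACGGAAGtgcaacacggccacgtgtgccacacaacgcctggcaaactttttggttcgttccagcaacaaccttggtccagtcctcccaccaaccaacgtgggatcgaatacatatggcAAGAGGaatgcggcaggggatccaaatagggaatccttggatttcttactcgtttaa
The 250 bases before the RefSeq start of Iapp (GRCm38.p6, chr6:142298175-142298424, plus strand) are shown because Iapp varied with homeobox genes and with Sst across the groups described further on. Capitals mark TAAT on either strand, the core that many homeodomain proteins bind.
Iapp upstream: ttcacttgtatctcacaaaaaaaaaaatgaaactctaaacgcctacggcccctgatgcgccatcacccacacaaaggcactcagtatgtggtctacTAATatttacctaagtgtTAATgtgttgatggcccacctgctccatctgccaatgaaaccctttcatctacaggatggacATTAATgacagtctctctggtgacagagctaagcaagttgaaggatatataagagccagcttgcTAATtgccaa
TAAT or its complement ATTA occurred 5 times in this window, 2 of them overlapping, and 5.54% of the 32851 mouse windows of the same length held at least as many. At least 1 match was present in 54.9% of all windows. The cyclic AMP response element TGACGTCA, known from the Sst promoter, was present in the Sst window, absent from these letters of Iapp, and present in 1.55% of all windows. A match is a string of letters and was not tested for binding.

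Filtering left 3003 WT cells and 5292 NFKO cells, with 78424392 and 111522270 UMIs; a UMI is a barcode that marks 1 captured transcript molecule. Their median cells held 16883 and 17035 UMIs, and the libraries shared 6 of their deposited cell barcodes. Foxo1 stood at 11.5 CPM (UMIs per 1000000) in WT and 12.4 CPM in the NFKO-labelled library, a ratio of 1.07 (0.987 to 1.17). Which part of Foxo1 is deleted is not given in the sources used here, and a deletion outside the counted end leaves such a count as it was, so the value neither backs nor contradicts the label. By Xist and Y-linked transcripts, 2424 WT cells were typed male and 6 female, against 357 male and 4357 female in the NFKO-labelled library. Genotype, sex, mice and library preparation cannot be told apart in the comparisons between the libraries. All intervals here are exact, at 95%, and cover counting error only.

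Over all kept cells Iapp had 1433 UMIs in WT (18.3 CPM, 17.3 to 19.2) and 19473 UMIs in the NFKO-labelled library (175 CPM, 172 to 177). Most of this lay in enteroendocrine-like cells, the clusters named by endocrine markers such as Chga, Neurod1 and Cpe. These 630 WT and 1546 NFKO cells made up 20.98% and 29.2% of the kept cells and held 78.4% and 94.0% of the Iapp UMIs. Their Iapp level was 143 CPM (135 to 152) in WT and 763 CPM (752 to 774) in the NFKO-labelled library, a ratio of 5.33 (5.02 to 5.67). Between the same cells, 1.12% of the 3575 genes compared were at least 2-fold higher and 0.587% at least 2-fold lower in the NFKO-labelled library. The WT cells of this class lay mostly in clusters 7, 4 and 3 and the others mostly in clusters 3, 4 and 11.

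To ask which hormone cells carried the transcript, each enteroendocrine-like cell was given a subtype by its most abundant hormone, without the use of Iapp. Iapp was a transcript of Sst-dominant cells. There were 38 of them in WT and 95 in the NFKO-labelled library, 6.03% and 6.14% of the enteroendocrine-like cells, and they held 1103 and 16865 Iapp UMIs. That was 98.1% and 92.1% of the Iapp UMIs of the class, and 77.0% and 86.6% of those of the whole library. An Iapp UMI was found in 32 of 38 and 94 of 95 Sst-dominant cells. At least 500 Iapp CPM and 5 UMIs, called Iapp-high, were reached by 18 of 38 WT cells and 88 of 95 NFKO cells.

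**Figure D1:**
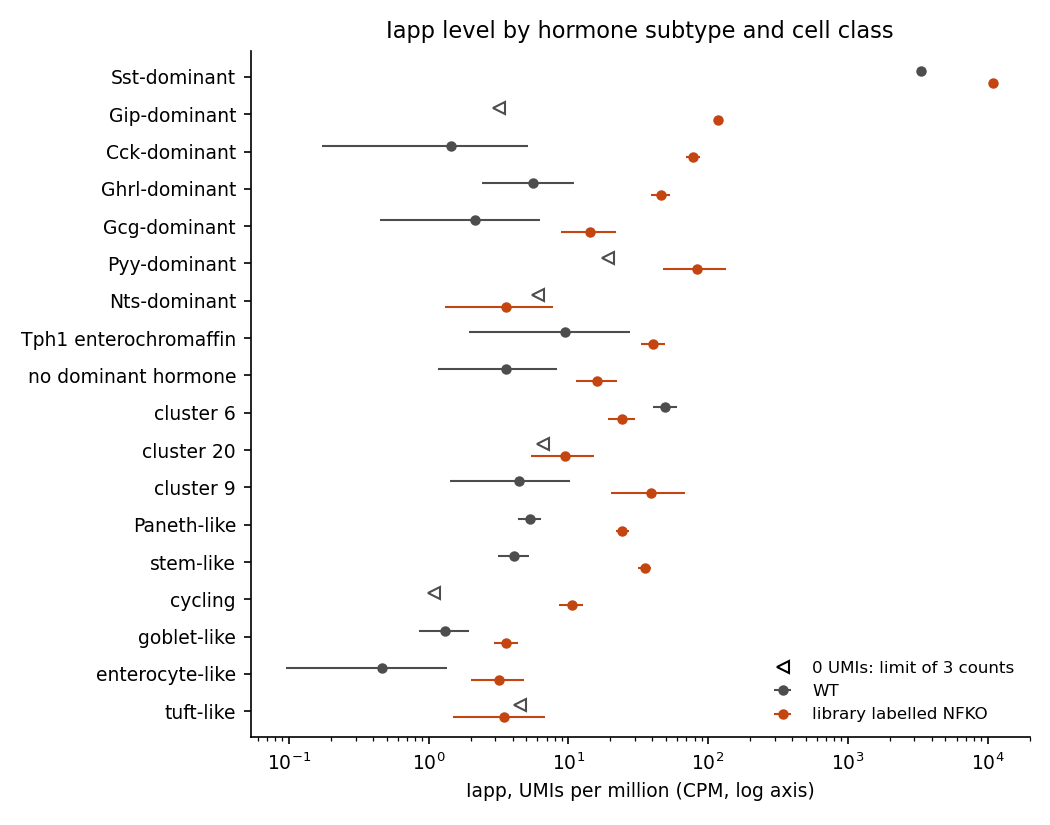
Iapp level in CPM (log axis) in each hormone subtype and cell class of WT (grey) and the NFKO-labelled library (orange), with exact 95% Poisson intervals for counting error. Open triangles stand at the limit of 3 counts for groups with 0 UMIs; Sst-dominant cells lie at 3331 and 11021 CPM, to the right of every other group, and cluster 6 is the group with the higher value in WT.

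The D-cell identity of these cells was checked on genes other than Sst. Hhex, the homeobox factor of D cells, was found in 37 of 38 WT and 94 of 95 NFKO Sst-dominant cells, at 839 and 881 CPM, against 9.97 and 20.9 CPM in the remaining enteroendocrine-like cells. Isl1, a LIM-homeobox factor of many endocrine cells, stood at 1401 and 1312 CPM. The summed markers of other cell types ranged from 0 to over 1000 CPM. All 8 pancreatic acinar markers were at 0 in the Sst-dominant cells of both libraries, as were Ins1, Ins2, Mafa and Nkx6-1 among the islet markers. The 8 tuft markers summed to 0 and 3.92 CPM and the 8 immune markers to 0 and 1.31 CPM. The 8 goblet markers summed to 948 CPM in WT, with Spdef at 0, and 4707 CPM in the NFKO-labelled library, and the 8 Paneth markers to 1969 and 1655 CPM. Their part in the Iapp values was not tested.

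Within Sst-dominant cells the Iapp level was 3331 CPM (3137 to 3533) in WT and 11021 CPM (10855 to 11189) in the NFKO-labelled library, a ratio of 3.31 (3.11 to 3.52). Of the 3644 genes compared in these cells, 2.94% were at least 2-fold higher and 5.71% at least 2-fold lower in the NFKO-labelled library. Single WT cells ranged from 0 to 11622 Iapp CPM with a median of 775, and single NFKO cells from 0 to 31804 with a median of 8816. The ranges overlap, but the quartiles, 215 to 2542 CPM in WT and 3769 to 15520 CPM in the NFKO-labelled library, do not. Sst itself moved less, from 157683 to 211044 CPM, a ratio of 1.34 (1.33 to 1.35). Iapp UMIs per 1000 Sst UMIs were 21.1 in WT and 52.2 in the NFKO-labelled library. Across single Sst-dominant cells Iapp went up with Sst, with a Spearman rho of 0.66 over the 38 WT cells and 0.80 over the 95 others. Both values share the total of the cell. In WT the rho was 0.83 over the 13 cells of at least 10000 UMIs but 0.19 over the 25 shallower cells. In the NFKO-labelled library it was 0.78 over 86 deeper cells and 0.83 over 9 shallower ones.

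**Figure D2:**
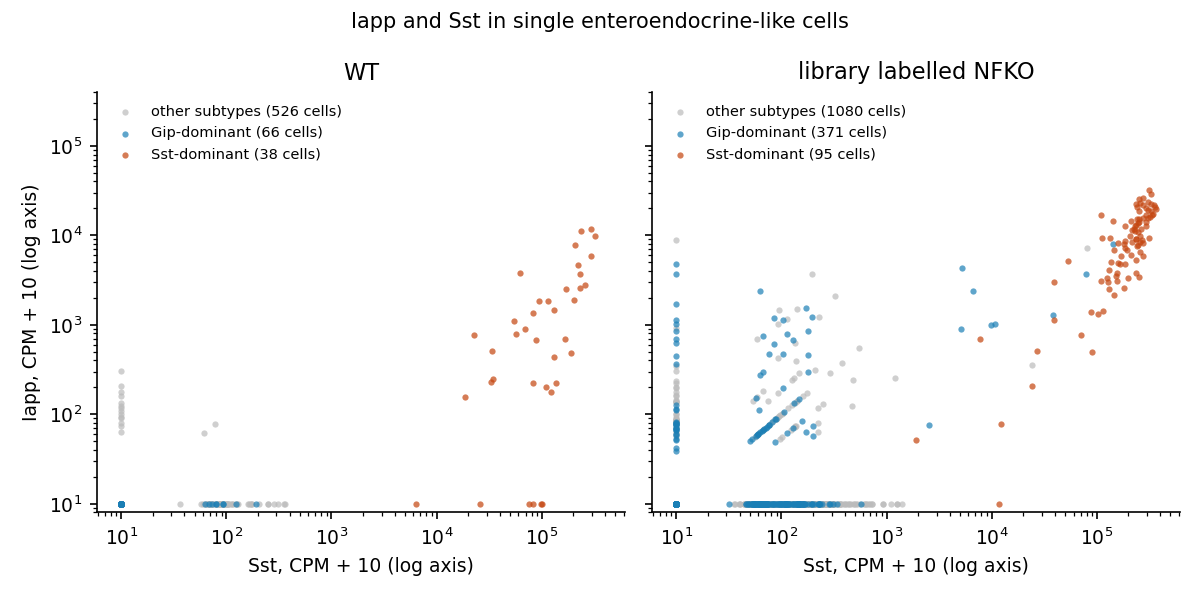
Iapp against Sst in single enteroendocrine-like cells, both in CPM plus 10 on log axes, for WT (left) and the NFKO-labelled library (right); each point is a cell, coloured by its dominant hormone. Sst-dominant cells (38 and 95) rise along the right edge, and blue Gip-dominant cells with Iapp but little Sst occur on the right panel only.

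Depth moved with this difference. The WT Sst-dominant cells were shallower, with a median of 8151 UMIs against 16473. Among cells of at least 10000 UMIs, 13 WT cells stood at 5021 CPM and 86 NFKO cells at 11038 CPM, a ratio of 2.20 (2.06 to 2.35). In these deeper cells Sst hardly differed, with a ratio of 1.03 (1.02 to 1.04). Among shallower cells, 25 in WT and 9 in the NFKO-labelled library, the levels were 1004 and 10552.5 CPM and the ratio 10.5 (8.72 to 12.7). The direction was thus the same on both sides of the depth limit and the size was not. With every cell thinned to 2000 UMIs, 26 of 38 WT and 92 of 95 NFKO Sst-dominant cells kept an Iapp UMI, and the thinned cells held 4.32 and 20.1 Iapp UMIs on average.

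**Figure D3:**
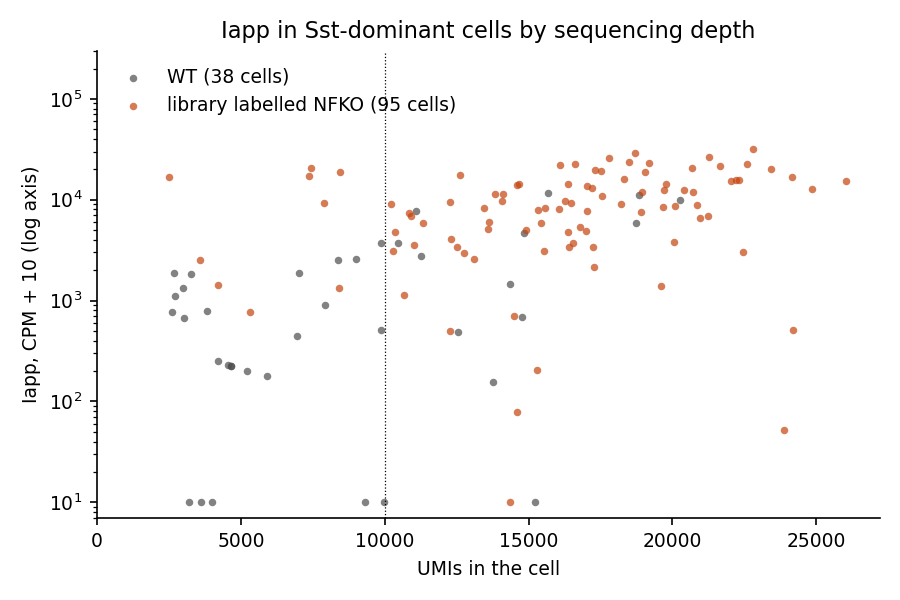
Iapp in CPM plus 10 (log axis) against the UMIs of the cell for the 38 WT (grey) and 95 NFKO (orange) Sst-dominant cells, with a dotted line at 10000 UMIs. Of the WT cells 25 lie left of the line, where only 9 NFKO cells lie.

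Sex moved with it as well. Cells typed male gave 3715 CPM over 29 WT cells and 15413 CPM over 8 NFKO cells, a ratio of 4.15 (3.84 to 4.49). The 84 NFKO cells typed female stood at 10617 CPM, and no WT Sst-dominant cell was typed female. Between cells typed male the ratio was no smaller than over all cells. Among stress genes, Hspa1a stood at 220 and 75.8 CPM and Jun at 2262 and 887 CPM in the Sst-dominant cells of WT and the NFKO-labelled library, and their part in the Iapp difference was not tested. The share of Sst-dominant cells was nearly the same in both libraries, but the subtypes as a whole were not. Gip-dominant cells made up 10.5% and 24.0% of the class. Cluster 9, left unnamed and outside the class, also held much Gip. Its Gip level was 89949 CPM in 200 WT cells and 166828 CPM in 110 NFKO cells. The Gip contrast therefore depends on how the clusters were named. The levels measured in the NFKO-labelled library, weighted by the WT shares of UMIs per subtype, gave 510 CPM, or 3.56 times WT. The WT levels weighted by the NFKO shares gave 215 CPM, or 1.502 times WT. These weights are shares of UMIs, not of cells, and so follow depth as well. Sst-dominant cells held 0.422% of all WT UMIs and 1.37% of all NFKO UMIs, where the class held 10.0% and 21.5%. WT Gip-dominant cells had 0 Iapp UMIs, so their weight adds nothing to the 215 CPM.

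An Iapp UMI was found in 164 WT cells and 570 NFKO cells, but few of them carried most of the transcript. In WT, 5 of 3003 cells held 50% of all Iapp UMIs, and in the NFKO-labelled library 24 of 5292 did. All 5 of the former and 23 of the latter were Sst-dominant. The cell with most Iapp UMIs held 208 in WT and 725 in the NFKO-labelled library, and the 10 top cells held 68.7% and 25.9% of the total. The WT level therefore rests on far fewer cells. Without the 10% of Sst-dominant cells of each library with most Iapp UMIs, the ratio within these cells was 5.70, and without the 10 top cells of each, which are 10 of 38 in WT and 10 of 95 in the other library, it was 14.3.

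**Figure D4:**
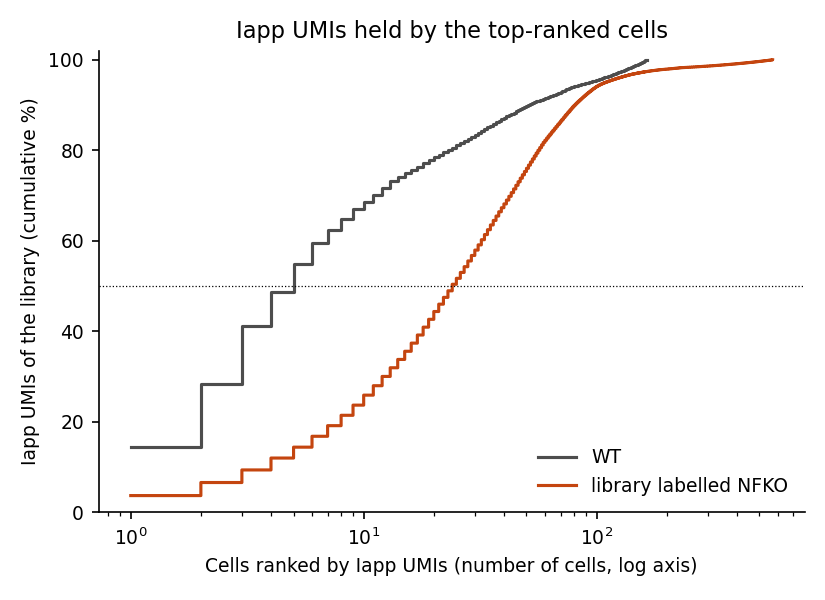
Cumulative percent of the Iapp UMIs of each library against the number of cells, ranked from most to fewest Iapp UMIs (log axis), with a dotted line at 50%. WT (grey) crosses the line at 5 cells and the NFKO-labelled library (orange) at 24.

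By the number of cells reaching 1000 CPM, ghrelin and secretin were the hormones most often found beside Sst in Sst-dominant cells. All Sst-dominant cells were counted, whether or not they held Iapp. Ghrl, the orexigenic hormone of X cells, reached 1000 CPM in 23 of 38 WT and 84 of 95 NFKO Sst-dominant cells. Sct, a hormone that prompts bicarbonate secretion, did so in 23 of 38 and 79 of 95. Gip, the incretin of K cells, reached it in 11 of 38 and 43 of 95, and Pyy, a satiety hormone of L cells, in 4 of 38 and 31 of 95. Gcg, the source of GLP-1, reached it in 0 and 1 cells, and Tph1, the serotonin-synthesis enzyme, in 0 and 0. Sst-dominant cells thus held Ghrl or Sct at this level far more often than Gcg or Tph1. Sct was not particular to them, at 2250 and 6315 CPM against 9876 and 25604 CPM in the remaining enteroendocrine-like cells. Nor was Gip, at 3258 and 10088 against 13202 and 56368 CPM. Ghrl was lower in Sst-dominant cells in WT, at 8367 against 13388 CPM, and higher in the NFKO-labelled library, at 33180 against 15728 CPM. Cells with Tph1 of at least 200 CPM and no peptide at 5000 CPM had been assigned to enterochromaffin cells first, which lowers the Tph1 count.

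Sst-dominant cells with a second hormone held more Iapp in some cases and less in others, and these contrasts were not tested. In the NFKO-labelled library, the 31 cells with Pyy of at least 1000 CPM stood at 15323 Iapp CPM and the other 64 at 8728, while in WT the 4 such cells stood at 1162 CPM and the other 34 at 3618. With Gip, 43 NFKO cells stood at 12399.6 CPM against 9940 in the other 52, and 11 WT cells at 1281 CPM against 3988 in the other 27. Sst moved the same way in each case, for example 90720.3 CPM in the WT cells with Gip and 179151 CPM in those without. With Ghrl of at least 1000 CPM the levels were 11796.5 against 4333 CPM in the NFKO-labelled library. In WT they were 3580 against 3029 CPM, with intervals that overlap and medians over cells of 766 against 784 CPM. The WT levels rest on few cells, and for Pyy the medians ran the other way, at 1023 CPM in the 4 cells with it and 775 CPM in the others.

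Among the enteroendocrine-like cells that were not Sst-dominant, Iapp was low in WT and higher in the NFKO-labelled library. The remaining 592 WT enteroendocrine-like cells held 21 Iapp UMIs (2.79 CPM, 1.73 to 4.27), with no cell above 2 UMIs. The remaining 1451 NFKO cells held 1440 (64.1 CPM, 60.8 to 67.5), a ratio of 23.0 (14.96 to 37.2). Goblet-, Paneth-, enterocyte- and tuft-like cells together, taken as the background, gave 2.95 CPM in WT and 9.27 CPM in the NFKO-labelled library. Of these counts 110 of 138 WT UMIs were in Paneth-like cells, and 282 of 513 NFKO UMIs were in 1 droplet rich in Sst, while goblet-like cells alone gave 1.32 and 3.60 CPM. At an equal depth of 2000 UMIs an Iapp UMI was kept by 0.677% of the remaining WT cells and 4.51% of the remaining NFKO cells, against 0.769% and 1.08% of those 4 classes. Unthinned the shares were 2.70% and 12.5%, against 4.09% and 7.46%, at median depths of 12997.5 and 15620 UMIs against 24922.5 and 21089.

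Gip-dominant cells carried the largest amount of this remainder. None of 66 WT Gip-dominant cells had an Iapp UMI, which allows up to 3.18 CPM, whereas 85 of 371 NFKO cells had at least 1, with 777 UMIs and 119 CPM (111 to 127). The level was at least 37.4-fold higher in the NFKO-labelled library, and 26 of its Gip-dominant cells were Iapp-high. Cluster 9, rich in Gip but outside the class, had 5 Iapp UMIs in WT (4.42 CPM) and 12 in the NFKO-labelled library (39.2 CPM). Cck-dominant cells, which make cholecystokinin, had 1.44 and 77.9 CPM, but 253 of the 308 NFKO UMIs lay in 1 cell that also held 2842 Sst and 3054 Cck UMIs. Ghrl-dominant cells had 5.595 and 45.7 CPM, with 114 of 172 NFKO UMIs in 1 cell. Tph1 enterochromaffin cells, the serotonin cells of the class, had 9.45 CPM in 33 WT cells and 40.6 CPM in 267 NFKO cells. Cluster 6, outside the class, also held Tph1 and ran the other way, at 49.3 CPM in 173 WT and 24.3 CPM in 257 NFKO cells. The direction for Tph1 cells therefore depends on how the clusters were named. Gcg-dominant cells had 2.16 and 14.3 CPM, and cells with no dominant hormone 3.58 and 16.1 CPM. Pyy-dominant cells, 12 in each library, had 0 and 82.9 CPM. Nts-dominant cells had 0 and 3.57 CPM, which is under the WT limit of 6.06 CPM. In order of level the NFKO subtypes ran Sst, Gip, Pyy, Cck, Ghrl, Tph1, no dominant hormone, Gcg and Nts, where the place of Cck rests on 1 cell and that of Pyy on 2 cells with 16 UMIs. The counting intervals of neighbours overlap for Pyy with both Gip and Cck, for Ghrl with Tph1, and for Gcg with the cells of no dominant hormone. In WT only the Sst-dominant cells stood apart from the rest.

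The 26 Iapp-high Gip-dominant cells of the NFKO-labelled library differed from the other 345 in their hormones. Their Sst level was 11580 CPM against 57.6, Ghrl 1009 against 232 CPM and Gcg 1950 against 378 CPM. Few cells carry these levels, since 8 of the 26 reached 1000 CPM for Sst, 7 for Ghrl and 1 for Gcg. Cck was lower, at 1612 CPM against 7393, and so was Sct, at 14587 against 38988 CPM. Gip stood at 219025 CPM and 189349 CPM, a far smaller contrast. Their median depth was 13421 UMIs against 17693. These cells were chosen by Iapp, and the contrasts are a description.

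Most of the Iapp in NFKO enteroendocrine-like cells that were not Sst-dominant lay in cells with at least 1 Sst UMI, and 28.1% lay in cells with 0. Cells with at least 1 Sst UMI were themselves 56.7% of these cells, 822 of 1451. An Iapp UMI was found in 10.3% of the cells with 0 Sst UMIs and 13.1% of those with 1 to 9, with intervals that overlap. Another 383 Iapp UMIs lay in 3 cells with at least 1000 Sst UMIs. Of the 38 Iapp-high NFKO enteroendocrine-like cells that were not Sst-dominant, 9 had Sst of at least 1000 CPM and 10 had 0 Sst UMIs. Of the 1440 Iapp UMIs in the remaining NFKO cells, 404 lay in 629 cells with 0 Sst UMIs and 469 in 811 cells with 1 to 9. In WT all 592 remaining cells had under 10 Sst UMIs, and 19 of their 21 Iapp UMIs lay in the 522 cells with 0. Leaving out cells with Sst of at least 1000 CPM, the NFKO Gip-dominant cells still stood at 73.7 CPM and the Ghrl-dominant cells at 43.7 CPM, while the Cck-dominant cells dropped to 14.04 CPM. On these values the places of Gip- and Cck-dominant cells in the order of subtypes change.

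Cells in the Sst cluster that were not Sst-dominant showed this most plainly. Cluster 18, led by Sst, Asic5 and Hhex, was formed without Iapp and held 36 WT and 114 NFKO cells. In WT all 36 were Sst-dominant. In the NFKO-labelled library 93 were. Of its others, 9 cells, all Gip-dominant, had Sst of at least 1000 CPM, and 12 cells, of which 8 were Gip-dominant, had at most 3 Sst UMIs. The 12 cells with so little Sst held 387 Iapp UMIs, from 1 to 114 per cell with a median of 21, or 2488 CPM (2246 to 2749). The 9 cells with Sst held 305 UMIs, or 2201 CPM (1961 to 2463), and the 93 Sst-dominant cells of the cluster stood at 11369 CPM. Gip-dominant cells outside the cluster, 354 in number, stood at 43.3 CPM (38.4 to 48.8).

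The D-cell factor Hhex was present in all 12 of these cells of the Sst cluster with at most 3 Sst UMIs. Its level was 919 CPM there, 901 CPM in the Sst-dominant cells of the cluster and 9.05 CPM in Gip-dominant cells outside it. Asic5, an acid-sensing ion channel subunit, stood at 900, 2214 and 49.1 CPM in the same order, and Glp1r, the receptor for GLP-1, at 238, 303 and 2.54 CPM. Kcnk2, a potassium channel subunit, was at 0 in the 12 cells and at 148 CPM in the Sst-dominant cells. Fabp5 and Cnr1, which lead the Gip cluster, stood at 4738 and 83.6 CPM in the 12 cells, at 1014 and 7.42 CPM in the Sst-dominant cells and at 12726 and 405 CPM in the Gip-dominant cells outside. The 12 cells thus lay near the Sst-dominant cells for Hhex and Glp1r, between both kinds for Gip, Fabp5 and Cnr1, and with the Gip-dominant cells outside, also at 0, for Kcnk2. Chga stood at 932 CPM in them, above the 347 and 226 CPM of both kinds. Their median depth was 12580 UMIs, against 16394 in the Sst-dominant cells of the cluster, and 11 of the 12 were typed female. All genes of these cells but Iapp and 9 others entered the clustering, so these levels are a description of the cluster.

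**Figure D5:**
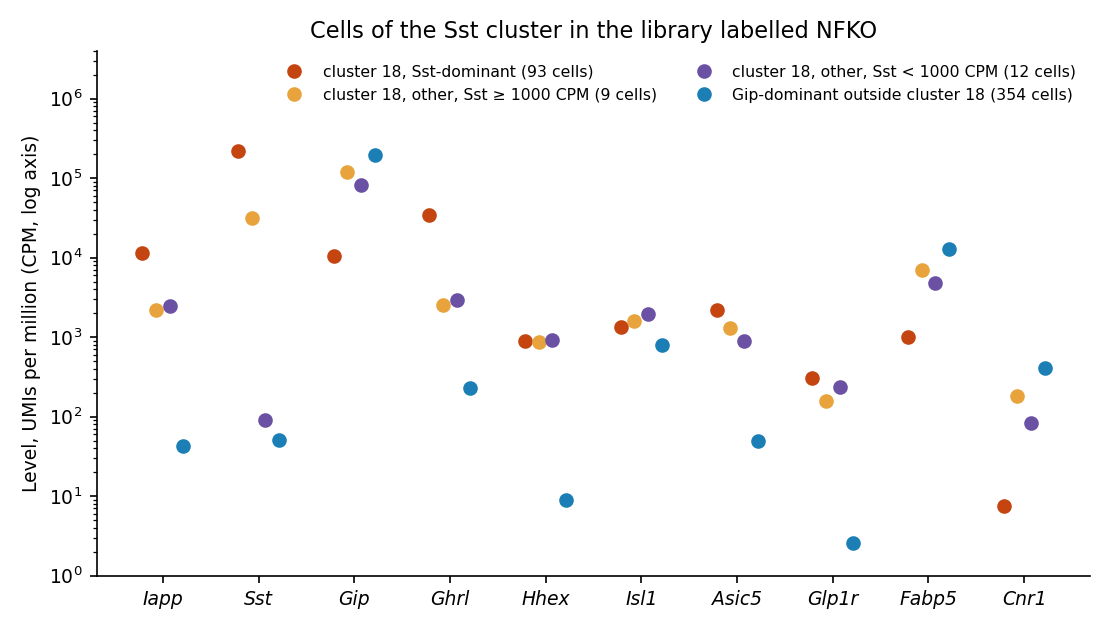
Levels in CPM (log axis) of Iapp and 9 other genes in 4 sets of cells of the NFKO-labelled library; each point is the summed level of a set, with its number of cells in the key. Cells of cluster 18 with Sst under 1000 CPM (purple) have Hhex near 919 CPM and Iapp near 2488 CPM, against 9.05 and 43.3 CPM in Gip-dominant cells outside the cluster (blue).

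A low level of Iapp also occurred in WT cells outside the clusters counted as enteroendocrine-like, among them cluster 6, which expresses endocrine genes. These cells held 309 Iapp UMIs, 21.6% of the WT total. The largest shares lay in cluster 6 with 101 UMIs, Paneth-like cells with 110 and stem-like cells with 63. Cluster 6, led by Tac1, Rab3c and Vim, was kept apart because Vim is a stromal marker, although its cells without Iapp held Chgb at 49859 CPM, Chga at 6239 CPM and Tph1 at 1965 CPM in WT. It stood at 49.3 CPM (40.2 to 59.9) in 173 WT cells and at 24.3 CPM (19.3 to 30.2) in 257 NFKO cells. The ratio was 0.493 (0.364 to 0.666), opposite in direction to that of the hormone subtypes. An Iapp UMI was found in 35 of 173 and 30 of 257 cells, and at 2000 UMIs in 8.09% and 4.82%.

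Iapp in cluster 6 came with almost no Sst. There were 101 Iapp and 23 Sst UMIs in the WT cells of the cluster, and 10 WT cells held at least 3 Iapp UMIs beside at most 1 Sst UMI. In those 10 cells Chga, a granin of secretory granules, stood at 13852 CPM against 6239 CPM in cells of the cluster with no Iapp UMI. Cck stood at 4752 against 474 CPM and Neurog3, the progenitor factor, at 6.82 against 236 CPM. Tac1 was at 11753 and 9813 CPM. In the NFKO-labelled library the 6 such cells showed the same order, with Chga at 14003 against 5153 CPM, Cck at 1121 against 236 CPM and Neurog3 at 247 against 574 CPM.

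Among Paneth-like cells the WT Iapp lay in cluster 17, led by Rnase1 and holding Mmp7 and Retnlb among its leading genes, more than in cluster 10, which is led by defensins. Cluster 17 had 92 UMIs in 118 cells (23.3 CPM, 18.7 to 28.5), and cluster 10 had 18 in 145 cells (1.07 CPM, 0.634 to 1.69). In cluster 17, 12 WT cells held at least 3 Iapp UMIs with at most 1 Sst UMI. Their Chga stood at 4.59 CPM and Lyz1, the lysozyme of Paneth cells, at 12184 CPM, against 5.96 and 19339 CPM in cells of the cluster with no Iapp UMI. Endocrine markers were therefore no higher there. In stem-like cells 5 WT cells of this kind, 46 of the 63 UMIs, had Chga at 1025 against 157 CPM.

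In the NFKO-labelled library the Iapp of other classes lay mostly in a few droplets that also held much Sst. A Paneth-like droplet of 76887 UMIs held 282 Iapp and 2954 Sst UMIs, and droplets with Sst of at least 1000 CPM held 75.8% of the Iapp UMIs of Paneth-like, 84.7% of stem-like and 75.0% of cycling cells. Without those droplets Paneth-like cells stood at 5.94 CPM, stem-like cells at 5.46 and cycling cells at 2.67, against 24.4, 35.1 and 10.6 CPM with them. Goblet-, enterocyte- and tuft-like cells stood at 3.60, 3.19 and 3.46 CPM, with at most 7 UMIs in a cell. Their Iapp UMIs per 1000 Sst UMIs were 69.3 (56.6 to 84.1), 60.7 (38.0 to 92.4) and 74.8 (31.5 to 153). Sst-dominant cells of the library gave 52.2, below the goblet interval and inside the enterocyte and tuft intervals. Paneth-like, stem-like and cycling cells gave 100, 51.6 and 30.8, and clusters 6 and 12 gave 368 and 148. In WT the same measure was 917 in Paneth-like, 488 in stem-like and 208 in goblet-like cells, against 21.1 in Sst-dominant cells. WT enterocyte-like cells gave 53.6 (10.7 to 165) on 3 Iapp UMIs. The ratio of Iapp to Sst thus varied between classes in both libraries, and the source of these UMIs was not tested.

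The other genes of the amylin system were examined by lists. In the calcitonin peptide family only Iapp of 10 members passed the minimum of 50 CPM and 30 UMIs. The other members had at most 30.2 CPM in Sst-dominant cells: Calca, Calcb, Adm2 and the receptor Calcr were at 0 there in both libraries, and Calcrl, a receptor for related peptides, was at 30.2 CPM in WT and 9.80 in the NFKO-labelled library. Ramp1, a receptor partner, stood at 12.1 and 28.8 CPM. A level of 0 allows up to 9.06 CPM in the WT Sst-dominant cells and 1.96 CPM in the others.

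Of the 10 processing and storage genes, 9 passed in both libraries for Sst-dominant over remaining enteroendocrine-like cells, with 0 at least 2-fold higher and 2 at least 2-fold lower in both. Over all 3353 genes that passed in both, 2.27% were higher and 4.21% lower. The lower genes were Chga, at 374 against 1217 CPM in WT and 356 against 2269 CPM in the NFKO-labelled library, and Pam, the amidating enzyme, at 205 against 421 and 210 against 451 CPM. Pcsk1, the convertase that makes the early cut, stood at 229 and 233 CPM in the Sst-dominant cells of both libraries, and Cpe at 1241 and 982 CPM. The median log2 ratio of the list between the libraries in Sst-dominant cells was 0.03, beside -0.11 over all 3644 genes, and 2 of 10 were at least 2-fold higher, beside 2.94% of all genes. These were Pcsk2 and Scg5, the convertase and its chaperone. Pcsk2 had 0 UMIs in the 38 WT cells and 122 in the 95 NFKO cells (79.7 CPM), and 0 allows up to 9.06 CPM in WT. It passed the minimum only through the NFKO-labelled library. Scg5 stood at 187 and 438 CPM.

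Islet genes were mostly absent or under the minimum level, and 6 of 15 were at 0 in the Sst-dominant cells of both libraries. Of 15 members, 3 passed in both libraries for the same contrast and 1 was at least 2-fold higher in both, beside 2.27% of all genes. This was Pdx1, a homeobox factor of pancreas and duodenum, at 103 CPM in WT and 193 in the NFKO-labelled library, against 12.2 and 38.8 CPM in the remaining class. Abcc8, the sulfonylurea receptor, stood at 278 and 317 CPM against 157 and 163. Pcsk2, also on this list, stood at 79.7 against 1.60 CPM in the NFKO-labelled library and at 0 against 1.99 CPM in WT. Ins1 and Ins2 had 0 UMIs in Iapp-high cells of either library, among 255521 and 2302304 UMIs. Of 18 endocrine transcription factors 14 passed in both, with Hhex and Pdx1 higher and 4 lower, beside 2.27% and 4.21% of all genes. Neurog3 stood at 9.06 and 22.9 CPM against 175 and 233 in the remaining class. Between the libraries 0 of the 11 factors that passed were at least 2-fold higher in Sst-dominant cells and 1 was lower, beside 2.94% and 5.71% of all genes. This was Rfx6, at 245 and 84.3 CPM. Hhex and Isl1 gave log2 ratios of 0.07 and -0.09, beside 1.73 for Iapp.

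Of 12 gut hormone genes 11 passed in both libraries, with Sst and Iapp, which define or follow the subtype, at least 2-fold higher in Sst-dominant cells and 6 lower, beside 2.27% and 4.21% of all genes. Between the libraries 7 of the 9 that passed were at least 2-fold higher in the Sst-dominant cells of the NFKO-labelled library, beside 2.94% of all genes. The 7 include Iapp itself, which was taken up because its level differed between the libraries. They also include Nts, which had 10 WT UMIs and passed only through the NFKO-labelled library. For Tac1, 220 of 270 NFKO UMIs lay in the 7 Sst-dominant cells that were not Iapp-high. Ghrl was at 8367 and 33180 CPM, Gip at 3258 and 10088, Pyy at 296 and 4877, Nts at 30.2 and 554 and Sct at 2250 and 6315. Iapp with a log2 ratio of 1.73 lay between Gip at 1.63 and Ghrl at 1.99, so it was not alone among the hormones of these cells in standing higher.

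Genes whose pattern was most like that of Iapp were sought over 38 cell groups, 19 per library, by the correlation of log2(CPM + 1). The groups share libraries and depth, so the values are a description. Sst came first with a Pearson r of 0.90, followed by Asic5 at 0.81, Hhex at 0.77, Phlda3, a p53 target, at 0.72, Kcnk2 at 0.70 and Glp1r at 0.69. Serpina1a at 0.69, the noncoding RNA Rian at 0.68 and 2010204K13Rik at 0.67 were also among the 10. Sst ranked first over the groups of each library taken alone as well. A rank correlation kept 4 of the 10, with Sst second.

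Within Sst-dominant cells, Iapp-high cells were set against the rest, 18 against 20 cells in WT and 88 against 7 in the NFKO-labelled library. Of 1716 genes compared, 15 were at least 2-fold higher in both libraries and 17 lower, 0.874% and 0.991% of the genes. A further 15 went in opposite directions. Ttr, a carrier of thyroid hormone and retinol made by islets and liver, stood at 216 against 24.4 CPM in WT and 624 against 173 CPM in the NFKO-labelled library. Rbp4, the retinol-binding protein, stood at 1599 against 529 and 1343 against 200 CPM, and Scg2, a granin, at 413 against 130 and 601 against 91.0 CPM. Gip stood at 4407 against 1310.2 CPM in WT and at 10784 against 1101 CPM in the NFKO-labelled library. In WT Gip did not rise with Iapp cell by cell. The 5 WT cells with most Iapp UMIs had from 0 to 7 Gip UMIs. WT Sst-dominant cells with Gip of at least 1000 CPM stood at 1281 Iapp CPM, against 3988 in the others. Ctsl, a lysosomal protease, Cfb, a complement factor, S100a1, a calcium-binding protein, Tmem108 and the near-identical paralogs Serpina1a and Serpina1b, whose reads may be shared, made up the other 6 named.

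In the NFKO-labelled library the remaining 7 cells also held genes of other endocrine cells, with Tac1 at 2002 against 35.2 CPM in the Iapp-high cells, Tph1 at 200.2 against 9.15 CPM and Neurog3 at 273 against 3.52 CPM, and their part in the gene differences was not tested. The genes lower in Iapp-high cells included Chgb, at 5142 against 11906 CPM in WT and 3461 against 15077 CPM in the NFKO-labelled library. The immediate-early genes Ccn1 and Dusp5 were lower too. Ccn1 stood at 33.6 against 203 and 12.0 against 155 CPM, and Dusp5 at 72.0 against 244 and 69.7 against 282 CPM. Cdkn1c, a cell cycle inhibitor, stood at 269 against 602 and 274 against 1010.0 CPM. Hmgn5, Tm4sf5, Pak3, Idh3b, Ppp1r10 and Mapk13 were the other 6 named. Sst moved with the split, at 205841 against 76049 CPM in WT and 225336 against 26333 in the NFKO-labelled library. Depth and mitochondrial share moved with it in WT, where the remaining 20 cells had a median of 4596.5 UMIs and 9.42% mitochondrial UMIs against 10770 and 3.09% in the Iapp-high cells. In the NFKO-labelled library the medians were 14601 UMIs in the remaining 7 cells and 16570.5 in the Iapp-high cells. Their part in these gene differences was not tested. With the cells split at the median Iapp level, 4 genes were higher and 12 lower in both libraries, and 3 of the 10 higher and 2 of the 10 lower genes named stayed on the lists.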

How the data were processed

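Libraries were made with the 10x Genomics 3′ kit, 1 per group. The authors deposited raw UMI counts per gene and barcode for each library, made with Cell Ranger 5.0.1 against mm10 per the submitters' processing notes; the annotation is not given in the sources used here. The cell filter asked for 500 genes, 1000 UMIs and no more than 25% mitochondrial UMIs and left 3129 of 5051 barcodes in WT and 5632 of 7540 in the NFKO-labelled library. Scrublet (scanpy 1.11.5) set a threshold that marked 3 and 0 cells, so the highest scores at a rate of 0.8% per 1000 barcodes, 126 and 340 cells, were removed instead. Both libraries were clustered together without integration in Seurat 5.3.0 (R 4.3.3; 2000 variable genes, 30 components, 20 neighbours, resolution 0.8) with Iapp and 9 other genes left out, and clusters were named from marker lists. Rebuilt names can differ from those of the study. A cell took its most abundant peptide hormone of at least 1000 CPM as dominant, after a Tph1 step for enterochromaffin cells. Counts were summed per group and divided by the summed UMIs (CPM, Python 3.11.15, numpy 2.4.6). Intervals are exact Poisson for levels, Clopper-Pearson for shares and conditional binomial for ratios (scipy 1.17.1). PCR duplicates are collapsed by UMIs, and intervals leave out the spread between mice. A count of 0 was given the limit of 3 counts per library. With 1 library per group no test was made, and genes were called by a fold of 2 at 50 CPM and 30 UMIs. On simulated counts of 1580 genes for the Sst-dominant comparison, this rule called 100% of 4-fold, 96% of 2.5-fold and 0.145% of unchanged genes. These were genes with at least 30 expected WT UMIs, simulated with counting error only. The real comparison covered 3644 genes, some with fewer WT UMIs, such as Kcnj11 with 8. The simulated rates therefore do not cover those genes or the spread between cells and mice. Named genes were the 10 highest and 10 lowest by the smaller change of both libraries, and the 10 with the highest correlation to Iapp. Some genes under these rules are not reported here. The gene and the lists were chosen with earlier results of these data known. Alternatives covered normalization, filters, doublets, seed, class and subtype rules, depth and sex.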

Additional observations from a re-analysis of the deposited data

Results flagged for a closer look

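Iapp was also present in barcodes that no comparison above uses. Barcodes that failed the cell filter, 1922 in WT and 1908 in the NFKO-labelled library, held Iapp at 1.99 CPM (1.03 to 3.47) and 53.9 CPM (47.1 to 61.3), above the limit that a count of 0 allows. In WT 9 of them had an Iapp UMI and in the other library 74, of which 12 were Iapp-high, all 12 with Sst of at least 1000 CPM. Barcodes removed as doublets held Iapp at 49.8 CPM (44.1 to 56.0) in WT and 205 CPM (195 to 214) in the NFKO-labelled library, which is 16.0% and 8.13% of all deposited Iapp UMIs. Among them 3 WT and 8 NFKO barcodes were Iapp-high, and 3 and 4 of these had Sst of at least 1000 CPM.

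The Iapp ratio of cluster 6, 0.493 (0.364 to 0.666), lay below 1, where enteroendocrine-like cells as a whole gave 5.33. The groups moved in opposite directions between the libraries, and this difference was not tested, since each group has 1 library.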

How the results depend on the processing

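No alternative reversed a direction; 28 values moved little and 27 moved beyond their counting interval or 1.5 times, and unless stated the cause was not tested. The enteroendocrine-like ratio of 5.33 became 5.796 with the stricter cell filter, 5.76 with no doublets removed, 5.69 with another seed, 5.84 by marker score, 7.56 in cells typed male, 5.86 with clusters 6, 9 and 20, and 30.7 without the 10 cells of each library with most Iapp, which removes a larger part of the WT cells. The share of cells with an Iapp UMI rises with depth by construction, to 7.62% and 17.9% unthinned and 12.4% for the NFKO-labelled library at 5000 UMIs. The share held by Sst-dominant NFKO cells became 95.8% by cluster and 89.0% with no doublets removed. Their ratio of 3.31 became 4.77 with equal weight per cell, 2.20 above 10000 UMIs, 4.15 in cells typed male, 3.61 with no doublets removed, 3.53 with Sst left out of the total, 4.65 thinned, 5.70 without the top 10% of cells and 14.3 without the top 10. Genes 2-fold higher or lower in Iapp-high cells numbered 83 and 104 with no minimum level, since more genes are then compared, 28 lower from 200 CPM, and 4 higher at a median split. The NFKO background of 9.27 CPM was 4.01 without the 1% of cells with most hormone UMIs. Of the 10 genes most like Iapp, 4 stayed by Spearman and 5 with a pseudocount of 10. In WT 38 Sst-dominant cells held 331178 UMIs, which limits the precision there. The alternatives of the Sst-dominant ratio by depth, sex, doublets, Sst, thinning and top cells, and those with clusters 6, 9 and 20 and the median split, were chosen after seeing the data. No paired analysis was possible because each group has 1 library.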
